A study of Mus musculus with 8 samples.

Results

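Of the matrix-degrading proteases and their inhibitors 10 genes were followed, 8 encoding matrix metalloproteases (MMPs) and 2 encoding their tissue inhibitors (TIMPs), across cultured mouse mammary epithelial cells with and without interferon-α (IFNα). The genes were Mmp2, Mmp3, Mmp7, Mmp9, Mmp10, Mmp12, Mmp13, Mmp14, Timp1 and Timp3, matched by gene symbol. This list was chosen with earlier results of these data known. All 10 had a value on every array and entered the tests, among 21794 genes in all. They were read by 11 probes, with 2 for Mmp12 and 1 for each of the others.

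Cells of FVB/N-J mice, wild type and virgin, were grown as mammospheres, which are floating spheres of mammary cells, and harvested after 8 days. The 4 groups were the mammary stem cell fraction (MaSC) and the luminal progenitor fraction (LP), each as control and with IFNα at 1000 U/ml, with 2 samples a group and 1 two-colour array a sample. The labels do not say whether sorting came before or after the culture, whether animals were pooled, or whether the 2 samples within a group were grown apart, so the spread that p-values rest on may be technical. One surface phenotype stands in the titles of MaSC and LP alike, and the population was taken from the gate name and the sample characteristics. Each value is the log2 ratio of a sample to a universal mouse reference RNA made from a mix of cell lines. A value of 0 means equal signal in sample and reference, and ratios of different genes cannot be ranked as levels. Differences of log2 ratios are given with the standard error of the limma fit, and a gene passed at a Benjamini-Hochberg adjusted p below 0.05 over all genes.

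MMPs are zinc-dependent endopeptidases, made as inactive proenzymes, that cut collagens, laminins, proteoglycans, cytokines and other proteases. Most are secreted, whereas MMP14 sits in the cell membrane and activates proMMP2 on the cell surface. TIMPs bind the active site and block it. In the mammary gland these proteins are known for their part in branching of the ducts, in the remodelling after weaning, and in the basement membrane contact that keeps epithelial cells differentiated.

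Of the 10 genes 5 lie on mouse chromosome 9, within a run of 10 MMP genes that spans 427.072 kb (GRCm38.p6, bases 7272514 to 7699585). No other protein-coding gene lies inside that span in the RefSeq annotation. Mmp13, Mmp12, Mmp3, Mmp10 and Mmp7 follow in this order, with other MMP genes between them except between Mmp13 and Mmp12. The others are spread over the genome, with Mmp2 on chromosome 8, Mmp9 on 2, Mmp14 on 14, Timp1 on X and Timp3 on 10. The 120 bases before the annotated start are shown for 4 of the cluster genes, since these genes share a short motif there, and for Mmp14, which does not have it. Capitals mark the TATA motif TATAAA and the motif TGANTCA, where N is any base. The latter is a loose form of the AP-1 site. AP-1 stands for dimers of Fos and Jun proteins, and its site is long known from the promoters of MMP genes. Sequences are from RefSeq, plus strand.
Mmp3, chr9:7445702-7445821: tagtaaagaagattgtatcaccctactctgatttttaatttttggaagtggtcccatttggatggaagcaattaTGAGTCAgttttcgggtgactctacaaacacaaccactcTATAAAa
Mmp10, chr9:7502222-7502341: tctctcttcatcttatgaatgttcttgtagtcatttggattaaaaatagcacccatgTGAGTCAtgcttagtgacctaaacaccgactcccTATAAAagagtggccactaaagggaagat
Mmp13, chr9:7272394-7272513: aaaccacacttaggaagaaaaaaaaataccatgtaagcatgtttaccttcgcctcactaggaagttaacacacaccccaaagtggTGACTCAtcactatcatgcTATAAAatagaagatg
Mmp7, chr9:7691970-7692089: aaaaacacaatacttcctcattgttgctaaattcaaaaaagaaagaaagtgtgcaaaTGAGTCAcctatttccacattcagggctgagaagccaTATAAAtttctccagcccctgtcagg
Mmp14, chr14:54431478-54431597: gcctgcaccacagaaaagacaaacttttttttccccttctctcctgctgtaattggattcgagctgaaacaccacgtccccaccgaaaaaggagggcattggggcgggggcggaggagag

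The motif TGANTCA, which reads the same on both strands, began 46 bases before the start of Mmp3, 63 before Mmp10, 63 before Mmp7 and 35 before Mmp13. Mmp7 and Mmp12 have 2 annotated starts each, and the motif began 44 bases before the second start of Mmp12. All 5 cluster genes described here therefore had the motif before a start, where 6.75% of all 32851 promoter windows had it within 250 bases. Of the other 5 MMP genes of the cluster, Mmp1a and Mmp1b had it as TGAGTCA and Mmp20 as TGAATCA, whereas Mmp8 and Mmp27 had no match. TATAAA stood in the windows of Mmp3, Mmp10, Mmp13 and Mmp7, against 12.4% of all windows. The core of the interferon-stimulated response element, searched on both strands as GAAA repeated after any 2 bases, was found in 2.98% of all windows, and among the 8 of the 10 genes with a window only before Mmp13, 146 bases from the start and on the minus strand. An NF-κB motif searched as GGGANTTCC matched none of these windows and 1.43% of all windows. The motifs do not overlap in the printed stretches, and a match describes the letters only.

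The treatment could be read from genes outside the family, and the populations from basal markers, whereas luminal progenitor markers were mixed. Of 7 measured interferon-response genes all 7 passed as higher with IFNα averaged over both populations, with a median log2 difference of 6.44. Of 10 basal markers 6 passed as higher in MaSC averaged over both treatments, among them the basal keratin gene Krt5 at 3.78 ± 0.29 (adjusted p = 0.0045), while none of 7 luminal progenitor markers passed (0 by limma). By sign 4 of these 7 were lower and 3 higher in MaSC averaged over both treatments, with Kit among the higher. Krt8 and Cd14 were lower on all MaSC than on all LP arrays, by -0.88 ± 0.30 and -1.99 ± 0.54 (adjusted p = 0.15 and 0.10). Kit, high in luminal progenitors, stood at 6.88 to 8.21 on the MaSC arrays and at 3.66 to 7.80 on the LP arrays. Its ranges overlapped, and the 3.66 was on LP control replicate 1, with the remaining LP arrays at 6.82 to 7.80. LP control replicate 1 stood apart by its narrow log2 ratios, whose standard deviation was 0.63 against 1.19 to 1.26 on the remaining 7 arrays. How far each probe lay above background is not known from ratios alone, and having 2 arrays a group limits the precision.

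The stromelysin gene Mmp3 had the clearest population difference of the family. MMP3 cuts laminin, proteoglycans and other matrix proteins and activates several other proMMPs. In MaSC controls its log2 ratios were 3.30 and 3.39, in MaSC with IFNα 2.69 and 2.67, in LP controls 1.01 and 1.01, and in LP with IFNα 1.00 and 0.53. All 4 MaSC arrays stood above all 4 LP arrays, with 1.66 between the lowest MaSC and the highest LP value. Averaged over both treatments Mmp3 was higher in MaSC by 2.13 ± 0.15 (2 samples in each of 4 groups, adjusted p = 0.0033), a 4.37-fold difference. It passed in controls alone, at 2.34 ± 0.21 (adjusted p = 0.018), and with IFNα alone, at 1.92 ± 0.21 (adjusted p = 0.034). The average kept its call under all 13 alternative settings, with values from 1.66 to 2.24. The call in controls held under 6 of 14 alternatives and that with IFNα under 4 of 14. In controls it ended without either MaSC control, either MaSC IFNα array or LP control replicate 1, the last at 2.33 (adjusted p = 0.073). With IFNα it ended without any 1 array other than the LP controls (adjusted p = 0.072 to 0.20).

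Within each population Mmp3 ran lower with IFNα, but these differences did not pass. In MaSC both treated arrays were below both controls, with a difference of -0.67 ± 0.21 (unadjusted p = 0.019, adjusted p = 0.83). In LP the difference was -0.25 ± 0.21 (adjusted p = 0.83). Both treated LP arrays were below both controls, but replicate 1 only narrowly, at 0.995 against 1.008 and 1.015. Without LP IFNα replicate 2 the LP difference was -0.02. The order of the group means was MaSC control, MaSC with IFNα, LP control and LP with IFNα. Neither IFNα step in this order passed the limma test after adjustment, and the step from MaSC with IFNα to LP control was not tested.

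Mmp10, the other stromelysin gene, differed less. Its log2 ratios were 3.74 and 3.60 in MaSC controls, 3.50 and 2.32 in MaSC with IFNα, 2.31 and 2.61 in LP controls, and 2.66 and 2.61 in LP with IFNα. The MaSC controls were above all LP arrays, whereas the MaSC arrays with IFNα overlapped the LP arrays. The population difference was 1.21 ± 0.39 in controls (adjusted p = 0.27) and 0.28 ± 0.39 with IFNα (adjusted p = 0.79), and neither passed. In controls it was 0.14 with quantile normalization and -0.05 with all arrays scaled to the same standard deviation. The average over both treatments was 0.75 ± 0.27 (adjusted p = 0.18), and it was 0.15 and 0.05 under the same alternatives.

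Mmp7 encodes matrilysin, a small MMP without the hemopexin domain that is typically made by glandular epithelium. Its log2 ratios stayed close to those of the reference, at -0.28 and -0.21 in MaSC controls, -0.09 and -0.18 in MaSC with IFNα, -0.06 and 0.14 in LP controls, and -0.15 and -0.69 in LP with IFNα. The averaged population difference was 0.00 ± 0.16, with a 95% interval from -0.40 to 0.41. With IFNα both treated arrays were higher in MaSC (0.12 ± 0.23) and lower in LP (-0.46 ± 0.23), and the test of the difference between these responses gave 0.58 ± 0.33 (adjusted p = 0.9997).

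Mmp12, the macrophage elastase gene, was read by 2 probes that disagreed in spread. The first had log2 ratios from -0.59 to 1.76 over the 8 arrays, with 1.76 and -0.59 on the MaSC arrays with IFNα. The second stayed between -0.28 and 0.33. Averaged per gene, the population difference was 0.39 ± 0.32 (adjusted p = 0.52) and the IFNα differences were -0.06 ± 0.45 in MaSC and -0.04 ± 0.45 in LP.

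**Figure D1:**
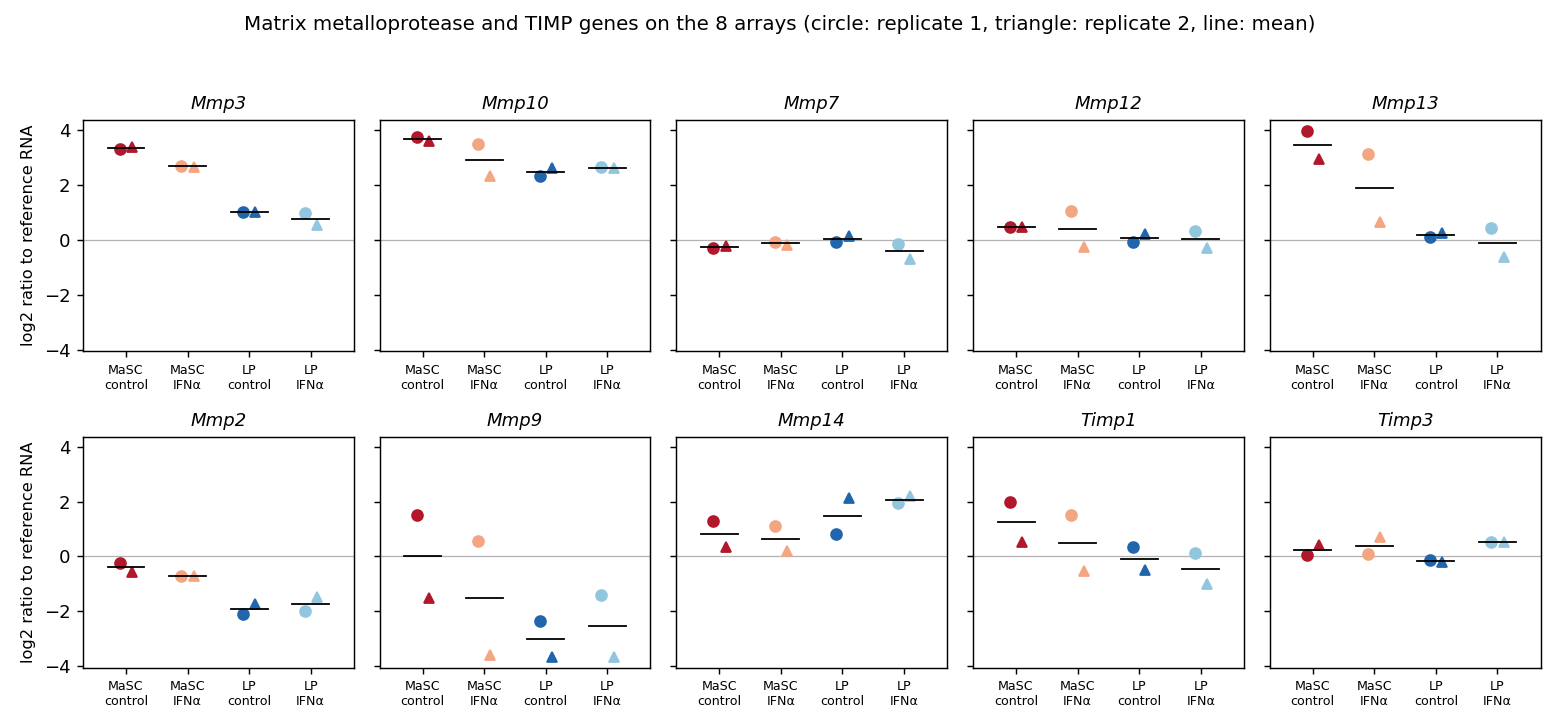
Log2 ratio to the reference RNA (vertical axis, the same scale in all panels) of each gene on each array, by group on the horizontal axis, with circles for replicate 1, triangles for replicate 2 and lines for group means. Mmp3 and Mmp2 separate the MaSC from the LP arrays with close replicates, whereas Mmp9 spreads from -3.68 to 1.51 with replicate 1 above replicate 2 in all 4 groups.

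Mmp13, the main interstitial collagenase gene of the mouse, had the largest population difference of the 10 genes but varied more between replicates. In MaSC controls its log2 ratios were 3.98 and 2.96, in MaSC with IFNα 3.11 and 0.67, in LP controls 0.09 and 0.24, and in LP with IFNα 0.43 and -0.64. All MaSC arrays were above all LP arrays, by as little as 0.23. Averaged over both treatments the difference was 2.65 ± 0.60, with a 95% interval from 1.19 to 4.11, and it did not pass (adjusted p = 0.073). The differences were 3.31 ± 0.84 in controls (adjusted p = 0.19) and 1.99 ± 0.84 with IFNα (adjusted p = 0.31). With IFNα Mmp13 stood at -1.58 ± 0.84 in MaSC (adjusted p = 0.9999), where the value rested on MaSC IFNα replicate 2 and was -0.36 without that array.

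The gelatinase genes Mmp2 and Mmp9, whose products cut denatured collagen and basement membrane collagen, differed in how closely their replicates agreed. Mmp2 had log2 ratios of -0.25 and -0.56 in MaSC controls, -0.73 and -0.71 in MaSC with IFNα, -2.10 and -1.73 in LP controls, and -2.00 and -1.48 in LP with IFNα. All MaSC arrays were above all LP arrays, with a gap of 0.75. Averaged over both treatments Mmp2 was higher in MaSC by 1.27 ± 0.18 (adjusted p = 0.027), a 2.41-fold difference. This call ended when any 1 array other than LP control replicate 2 was left out (adjusted p = 0.057 to 0.11, and 0.057 without LP control replicate 1). In controls the difference was 1.51 ± 0.26 (adjusted p = 0.093) and with IFNα 1.02 ± 0.26 (adjusted p = 0.15). The IFNα differences of Mmp2 were -0.32 ± 0.26 in MaSC and 0.17 ± 0.26 in LP, and neither passed (adjusted p = 0.9999 and 0.91). In LP that value was 0.97 with quantile normalization and 1.03 with equal array spread, and it was -0.01 without LP control replicate 1 and -0.09 without LP IFNα replicate 2.

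Mmp9, which in many tissues is also made by neutrophils and macrophages, spread more over the arrays than 99.2% of all genes. Its log2 ratios were 1.51 and -1.52 in MaSC controls, 0.56 and -3.60 in MaSC with IFNα, -2.34 and -3.68 in LP controls, and -1.40 and -3.67 in LP with IFNα. The array numbered 1 was above the array numbered 2 in every group, by 1.34 to 4.16, an order found in 11.1% of all genes. Both MaSC controls were above both LP controls, whereas the populations overlapped with IFNα. The averaged population difference was 2.01 ± 1.19, with a 95% interval from -0.90 to 4.92 (adjusted p = 0.37), and it ran from 0.97 to 3.05 with each array left out in turn. Between arrays of the same number, which the labels do not pair, MaSC minus LP was 3.85 and 2.16 in controls and 1.95 and 0.07 with IFNα. The IFNα difference in MaSC was -1.52 ± 1.68, and -0.96 and -2.08 between arrays of the same number. Leaving out each array moved it between -3.60 and 0.56, so that its direction rested on single arrays. In LP it was 0.48 ± 1.68, and 0.94 and 0.01 between arrays of the same number.

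Mmp14 was the only gene of the 10 with a lower average in MaSC than in LP. Its log2 ratios were 1.31 and 0.32 in MaSC controls, 1.12 and 0.18 in MaSC with IFNα, 0.83 and 2.13 in LP controls, and 1.93 and 2.21 in LP with IFNα. With IFNα both LP arrays were above both MaSC arrays, whereas in controls the groups overlapped through LP control replicate 1. Between arrays of the same number, MaSC minus LP was 0.48 and -1.81 in controls and -0.81 and -2.03 with IFNα. The averaged difference was -1.04 ± 0.41 (adjusted p = 0.20), and -1.37 without LP control replicate 1 (adjusted p = 0.13). In LP the IFNα difference was 0.59 ± 0.57, with values of -0.07 without LP control replicate 1 and 1.24 without LP control replicate 2.

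The inhibitor genes gave no call. Timp1 encodes a soluble inhibitor of most secreted MMPs, and its log2 ratios were 1.98 and 0.52 in MaSC controls, 1.52 and -0.54 in MaSC with IFNα, 0.34 and -0.50 in LP controls, and 0.11 and -1.002 in LP with IFNα. As with Mmp9, the array numbered 1 was the higher one in all 4 groups, by 0.83 to 2.06, an order found in 11.1% of all genes. The averaged population difference of Timp1 was 1.13 ± 0.60 (adjusted p = 0.32). Between arrays of the same number, which the labels do not pair, MaSC minus LP was 1.64 and 1.02 in controls and 1.41 and 0.46 with IFNα. Timp3 encodes the inhibitor that is held in the matrix and also acts on ADAM proteases. Its log2 ratios were 0.03 and 0.43 in MaSC controls, 0.08 and 0.71 in MaSC with IFNα, -0.12 and -0.21 in LP controls, and 0.52 and 0.52 in LP with IFNα. In LP both treated arrays were above both controls, with a difference of 0.68 ± 0.27 (unadjusted p = 0.044, adjusted p = 0.65), and in MaSC the difference was 0.16 ± 0.27.

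**Figure D2:**
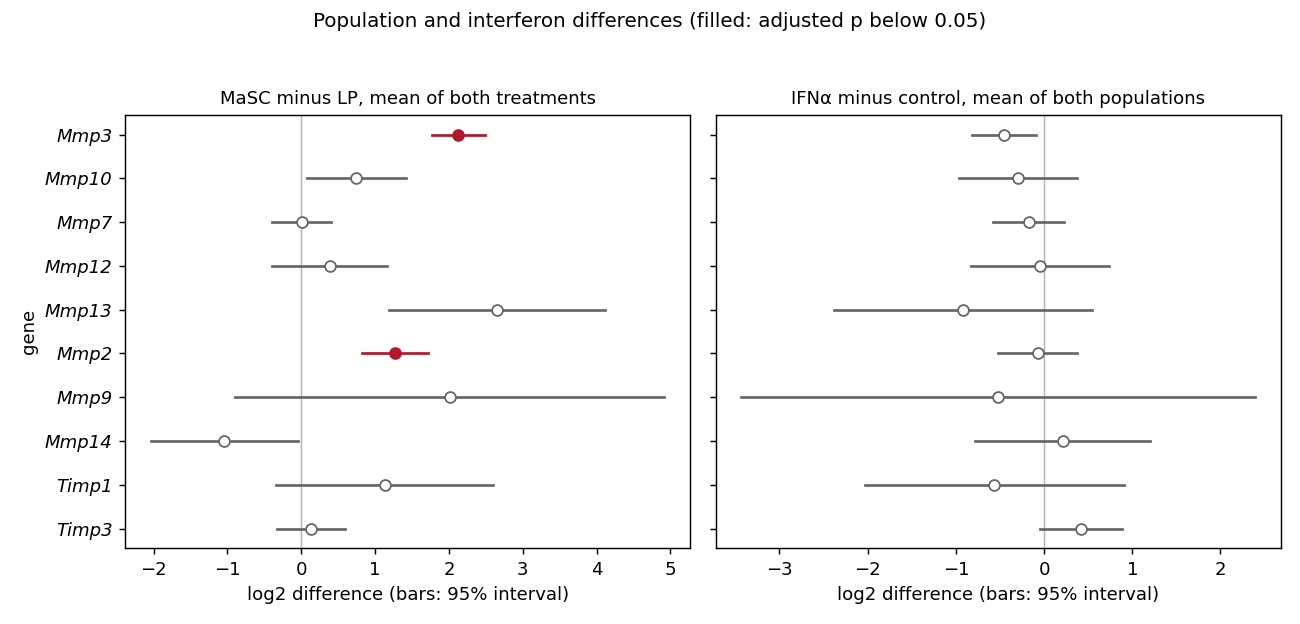
Log2 difference (horizontal axis) of each gene between MaSC and LP averaged over treatments, left, and between IFNα and control averaged over populations, right, with bars for 95% intervals of the limma fit and filled points for genes that passed. Mmp3 at 2.13 and Mmp2 at 1.27 passed in the population comparison, and no gene passed in the IFNα comparison.

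Calls within the family were found between populations and not with IFNα. Averaged over both treatments 2 of 10 genes passed as higher in MaSC, Mmp3 and Mmp2, where 2.34% of all genes passed as higher and 3.69% in either direction. In either direction 5 of 10 genes were at an unadjusted p under 0.05, where 23.2% of all genes were. These 5 were Mmp2, Mmp3, Mmp10 and Mmp13, higher in MaSC, and Mmp14, lower. The median of the 10 differences was 0.94 and that of all genes -0.02, and 9 of 10 were above 0, where 48.2% of all genes were. The 9 include Mmp7 at 0.00 ± 0.16 and Timp3 at 0.13 ± 0.19, whose standard errors exceed their differences. Because the 10 genes were chosen with earlier results known, these shares describe the list and are no test of the family. Of 17 related genes described below none passed, 10 were above 0, and their median was 0.06. In controls alone 1 of 10 passed (0.601% of all genes) with a median of 1.27, and with IFNα alone 1 of 10 (0.505% of all genes) with a median of 0.66. All MaSC arrays were above all LP arrays for Mmp2, Mmp3 and Mmp13, an arrangement found in 7.58% of all genes, and the opposite one held for 0 of 10 (10.4% of all genes). In controls the MaSC pair was above the LP pair for 8 of 10 genes (23.7% of all genes) and below it for 1, Mmp7 (22.7%). With IFNα it was above for 3 of 10 (21.7%) and below for 1, Mmp14 (28.6%). Unadjusted p-values under 0.05 were found for 4 of 10 genes in controls (13.8% of all genes) and 3 of 10 with IFNα (16.9%).

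IFNα moved no gene of the family past the threshold. In MaSC 0 of 10 passed by limma, where 0.234% of all genes did (1 of 10 at an unadjusted p under 0.05, and 4.54% of all genes), and 8 of 10 stood below 0, against 58.6% of all genes. The MaSC median was -0.49, and the median of all genes -0.05. Both treated MaSC arrays were above both controls for 1 gene (11.7% of all genes) and below them for 3 (20.3%). In LP 0 of 10 passed by limma, where 0.33% of all genes did (1 of 10 at an unadjusted p under 0.05, and 7.42% of all genes), with 5 of 10 below 0 and a median of 0.07. Both treated LP arrays were above both controls for 1 gene (17.9% of all genes) and below them for 2 (18.6%). Averaged over both populations 0 of 10 passed by limma, where 0.592% of all genes did (1 of 10 at an unadjusted p under 0.05, and 6.54% of all genes), and the lowest adjusted p was 0.59, for Mmp3 at -0.46 ± 0.15. For 0 of 10 genes did all 4 treated arrays lie above all controls (1.48% of all genes) or below them (1.73%). No gene of the 10, and 0% of all genes, passed in the difference between the responses (0 by limma, with 0 of 10 and 4.27% of all genes at an unadjusted p under 0.05). These comparisons share arrays. The 95% interval of the IFNα difference in MaSC ran from -1.18 to -0.15 for Mmp3 and from -5.63 to 2.60 for Mmp9.

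Along the chromosome 9 cluster the population difference was uneven from gene to gene. Averaged over both treatments it was 2.65 for Mmp13 and 0.39 for its neighbour Mmp12, 1.31 ± 0.44 for the collagenase gene Mmp1b, 2.13 for Mmp3, -0.10 ± 0.56 for the collagenase gene Mmp1a and 0.75 for Mmp10. It was 1.51 ± 0.34 for Mmp8, which encodes neutrophil collagenase, 0.44 ± 0.27 for Mmp27, -0.09 ± 0.29 for the enamel protease gene Mmp20 and 0.00 for Mmp7. Only Mmp3 passed, and Mmp8 came closest among the genes beside it that are not described above (adjusted p = 0.074), with all MaSC arrays at 0.68 to 2.39 and all LP arrays at -0.66 to 0.23.

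**Figure D3:**
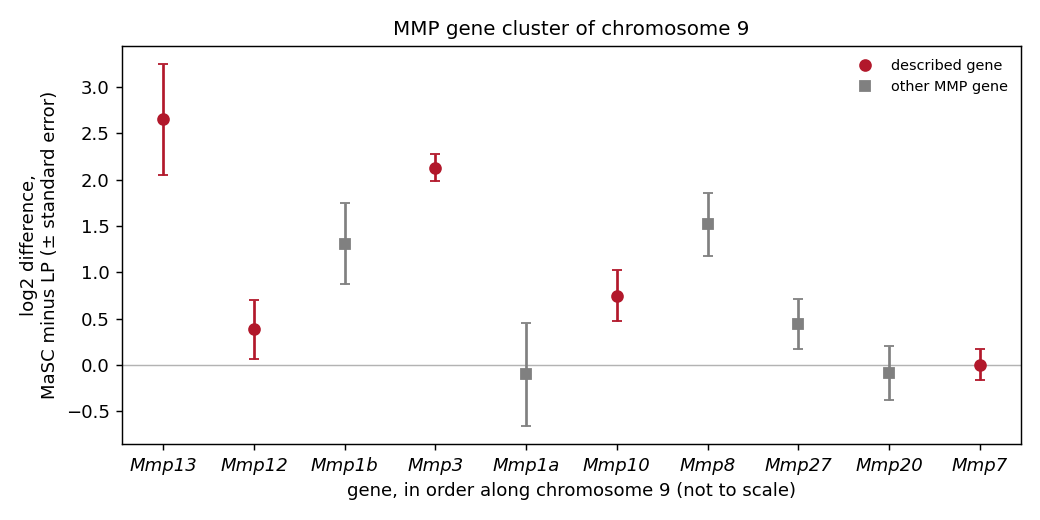
Log2 difference between MaSC and LP averaged over treatments (vertical axis, with bars for the standard error) for the 10 MMP genes of the chromosome 9 cluster in their order along the chromosome, round for the genes described here and square for the others. Mmp13, Mmp3, Mmp8 and Mmp1b stand above 1, while Mmp7, Mmp20 and Mmp1a lie near 0.

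Of a list of the remaining MMP and TIMP genes and Reck, which encodes a membrane-anchored MMP inhibitor, 17 of 18 were measured, and none passed in any of the 7 comparisons (0 by limma, with Mmp1b, Mmp8, Mmp27, Mmp28 and Timp2 at an unadjusted p under 0.05 in at least 1 of them). Their median population difference was 0.06. Timp2, whose product links MMP14 to proMMP2 on the cell surface, stood at -0.83 ± 0.23 (adjusted p = 0.10), with all MaSC arrays below all LP arrays, as Mmp14 did on the arrays with IFNα. Of 25 ADAM and ADAMTS genes 3 passed as higher in MaSC averaged over treatments (2.34% of all genes) and none as lower. They were Adamts9 at 1.87 ± 0.22 (adjusted p = 0.017) and Adamts1 at 1.19 ± 0.20 (adjusted p = 0.039), both secreted proteases that cut proteoglycans, and Adam8 at 1.64 ± 0.26 (adjusted p = 0.034). In controls alone Adamts6 passed as lower in MaSC, by -1.58 ± 0.21 (adjusted p = 0.049). With IFNα it stood higher in MaSC, by 1.28 ± 0.21 (adjusted p = 0.071). The difference between its IFNα responses, 2.86 ± 0.29, did not pass (adjusted p = 0.9997). Of 7 genes of the plasminogen system, which activates several proMMPs, 1 passed averaged over treatments (3.69% of all genes). It was the inhibitor gene Serpinb2, higher in MaSC by 3.52 ± 0.60 (adjusted p = 0.041).

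Among 17 inducers and transcription factors of MMP genes 1 passed averaged over treatments, where 3.69% of all genes passed. It was Ets2, lower in MaSC by -1.05 ± 0.16 (adjusted p = 0.034). The interleukin gene Il1a, which codes for a cytokine that induces MMP genes in many cells, stood at 5.17 and 4.74 in MaSC controls, 5.02 and 3.26 in MaSC with IFNα, 0.18 and -0.05 in LP controls, and 4.82 and 3.26 in LP with IFNα. Of the 4 groups the LP controls alone had ratios near 0. How far the probe lay above background on those arrays is not known from ratios alone, and the differences below rest on them. The difference between populations in controls was 4.89 ± 0.71 (adjusted p = 0.060), and that with IFNα in LP 3.98 ± 0.71 (adjusted p = 0.18). Its part in the values of the MMP genes was not tested.

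Markers of other cell types also differed between the populations. Averaged over treatments 2.34% of all genes passed as higher in MaSC, and 48.2% had a positive difference. All 9 measured fibroblast markers had a positive difference between MaSC and LP averaged over treatments, and 3 of them passed, the receptor gene Pdgfrb at 3.15 ± 0.41 and the matrix proteoglycan genes Dcn at 2.23 ± 0.19 and Lum at 1.64 ± 0.18 (adjusted p = 0.021, 0.0061 and 0.013). Their mean log2 ratio was -1.06 to -0.07 on the MaSC arrays and -2.53 to -1.94 on the LP arrays. Of 8 endothelial and mural markers 5 passed as higher in MaSC, and their mean was 1.78 to 2.50 on the MaSC arrays and -0.26 to 0.17 on the LP arrays. None of 14 leukocyte markers passed (0 by limma), with a mean of -1.23 to -0.96 on the MaSC arrays and -1.09 to -0.29 on the LP arrays. The -0.29 was on LP control replicate 1, the array with narrow ratios, and the remaining LP arrays were at -1.09 to -0.79. Of 5 osteoclast and cartilage markers the collagen-cutting cathepsin gene Ctsk passed, higher in MaSC by 1.05 ± 0.12 (adjusted p = 0.015). By sign 2 of these 5 were higher and 3 lower in MaSC, with a median of -0.27. Of 4 mature luminal markers none passed (0 by limma). In these cultures a different share of cells and a different amount of RNA per cell cannot be told apart, and the part of these cell types in the values of Mmp2, Mmp3, Mmp9, Mmp13 and Timp1 was not tested.

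Genes with the most similar pattern were sought over the 8 arrays by the mean absolute difference of centred log2 ratios, where smaller is closer. For Mmp9 they were the fibrillar collagen gene Col1a1, at 0.55, and the matrix protein gene Cilp, at 0.58. Col1a1 stood at -1.28 and -3.22 in MaSC controls, -1.46 and -3.94 in MaSC with IFNα, -4.24 and -5.00 in LP controls, and -4.06 and -5.28 in LP with IFNα. It was chosen for its likeness to Mmp9 on these arrays, so that a shared order of the replicates follows from the choice. Of all genes 11.1% were higher on the array numbered 1 in all 4 groups. For Mmp13 the closest genes were Uchl1 at 0.41 and the collagen gene Col6a3 at 0.43, and for Timp1 the secreted protein gene Srpx2 at 0.18 and Hoxa3 at 0.22. For Mmp3 they were Sprr2a2, a small proline-rich protein gene of the epidermal envelope, and Gjb6, a connexin gene, at 0.16 and 0.17. For Mmp14 they were Scara5 and Zfp3, at 0.14 each, and for Mmp10 Camp and Gm11201, at 0.17 and 0.18. The others were Gm2921 and Olfr1402 for Mmp2 at 0.15 and 0.16, Gm14308 and Aym1 for Mmp7 at 0.07 and 0.08, Gm6260 and Stpg1 for Mmp12 at 0.15 and 0.17, and Hsdl2 and Pgap2 for Timp3 at 0.05 and 0.10.

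**Figure D4:**
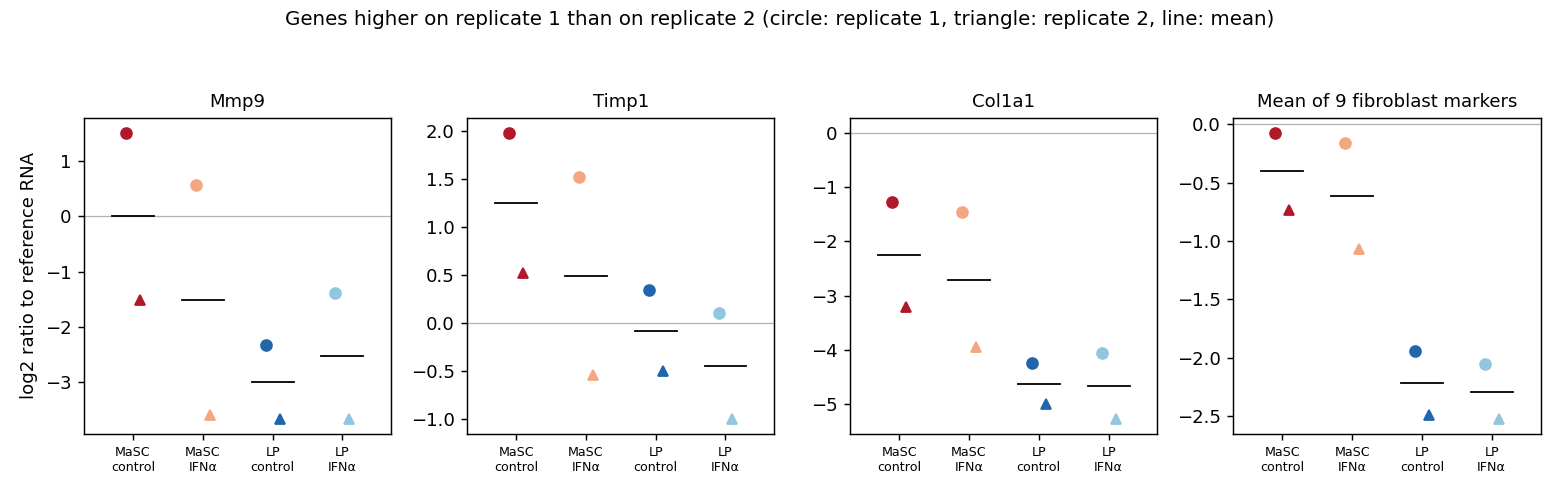
Log2 ratio to the reference RNA (vertical axes, with a scale of its own in each panel) of Mmp9, Timp1, Col1a1 and the mean of 9 fibroblast markers, which include Col1a1 (shown as the gene closest to Mmp9 on these arrays), by group, with circles for replicate 1, triangles for replicate 2 and lines for group means. In every group replicate 1 was above replicate 2, an order found in 11.1% of all genes. Within each treatment the LP array of each number was below the MaSC array of the same number, though the labels do not pair these arrays.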

How the data were processed

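Two-colour Agilent arrays measured total RNA of 8 samples. Per the labels, test RNA carried Cy5 and universal mouse reference RNA carried Cy3. The scanner software was Feature Extraction 11.0 by Agilent, as the submitters' processing notes name it. The authors deposited 1 log ratio per probe and array, used as log2 of sample over reference. The base was taken from their range (-9.32 to 8.55), and the direction from the dyes. Their normalization and centring are not given in the sources used here (array medians -0.14 to 0.15).

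Of 55681 probes 30626 carried 1 gene symbol and 25055 none. The 30398 named probes with a value on all arrays were averaged by symbol into 21794 genes. The fit used limma 3.58.1 (R 4.3.3), with 1 mean per group over all 8 arrays, no replicate block and empirical Bayes moderation (4 residual and 1.98 prior degrees of freedom). Tests were two-sided, with Benjamini-Hochberg adjustment over all genes within each of 7 comparisons. Averages over treatments or populations are contrasts of group means.

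The 10 genes and the 12 other lists (144 genes, 130 tested) were chosen with earlier results of these data known. From these lists the text names up to 3 passing genes with the largest change, or the one with the lowest p, a few population markers (Krt5, Krt8 and Kit here), and for each of the 10 genes the 2 genes of closest pattern. Beyond that rule Mmp1a, Mmp1b, Mmp20, Timp2 and Il1a were named after their values were seen. On simulated data of the MaSC comparison with 21794 genes, 50 genes each were shifted by 1, 2, 3 or 5 on the log2 scale. Of these 10%, 46%, 66% and 92% were recovered, with 6 false calls. Noise was drawn with each gene's own residual spread, so these shares need not hold for the measured data. Motifs were searched in the 250 bases before each annotated start (GRCm38.p6).

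Replicate numbers were not taken to pair the samples, since the labels give them no meaning. Across genes the differences between replicates 1 and 2 correlated at 0.305 between MaSC control and MaSC with IFNα. Between the other pairs of groups the correlation was -0.0182 to 0.111. Whether the MaSC arrays of the same number belong together was not tested. Alternatives were each array left out, a replicate block, quantile normalization, equal array spread, the probe of highest mean, a fit per probe, and a fit of the compared groups alone.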

Additional observations from a re-analysis of the deposited data

How the results depend on the processing

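Of the calls on the 10 genes, that of Mmp3 between populations averaged over treatments held under all 13 alternatives (adjusted p = 0.0038 to 0.025). With each array left out in turn, the number of the 10 genes that passed was 1 to 2 in that average, 0 to 1 in controls and 0 to 1 with IFNα. Quantile normalization and equal array spread each left 1 gene, Mmp3, in the average, 0 in controls and 0 with IFNα. A fit of the compared groups alone left 0 in controls and 0 with IFNα. Equal spread moved the median of all genes from -0.02 to -0.11 in the average. With the replicate block, which the labels do not support as a pairing, 3 of the 10 genes passed in the average, Mmp13 among them (adjusted p = 0.047), and 0 with IFNα. Over all genes the block gave 12 calls for IFNα in MaSC (51 without it), 27 for IFNα in LP (72) and 54 between populations with IFNα (110), but 1107 in the population average (804). Quantile normalization gave 214 calls between populations in controls (131). The compared groups alone gave 0 calls in each of the 4 comparisons of 2 groups. Leaving out each array gave 0 to 57 calls for IFNα in MaSC, 0 to 422 in LP, 0 to 368 between populations in controls, 0 to 165 with IFNα, 136 to 781 in the average and 40 to 201 for IFNα in both populations. Of 950 alternative values of the 10 genes over all comparisons, most of which were no calls, 67 had the other sign, 80 moved by over 1 standard error and 27 lost a call. None of the 67 (0) concerned a call. The cause of these shifts was not tested.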
